A study of Rattus norvegicus with 6 samples.

Results

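The genes described here encode 8 intermediate filament proteins, 3 of glia (Gfap, Vim and Nes) and 5 of neurons (Nefl, Nefm, Nefh, Ina and Prph). They were found by matching the symbol or the accession of each probe, and they are 8 of the 17338 genes and 9 of the 30367 probes of the arrays. RNA of the hippocampus of male Wistar rats was hybridised to 6 one-colour Agilent arrays, 1 per group. The control group was followed by groups taken at day 21, 35, 45, 55 and 70 after both common carotid arteries had been permanently ligated under isoflurane (BCCAo), a model of chronic low blood flow to the brain. The labelled RNA was pooled, but the labels state neither how many rats a pool held nor whether the controls had a sham operation. They give an age of 12 weeks for the control group and of 13, 14, 15, 16 and 17 weeks for the groups at day 21, 35, 45, 55 and 70, steps that do not follow the days, while another label calls all of them 12 weeks old.

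Intermediate filaments are the rope-like part of the cytoskeleton, and each cell type builds them from its own proteins. Astrocytes use the glial fibrillary acidic protein, encoded by Gfap, together with vimentin, encoded by Vim, and higher levels of both are the classical sign of reactive astrocytes. Vimentin is also made by microglia and macrophages, endothelium, fibroblasts and the meninges. Nestin, encoded by Nes, belongs to neural stem cells and is also found in endothelium and in some reactive astrocytes. In axons the light, medium and heavy neurofilament chains (Nefl, Nefm, Nefh) assemble with alpha-internexin (Ina) and set the calibre of the axon. Peripherin (Prph) is the type found mainly in peripheral and motor neurons.

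The signal of each gene came from 60-base probes, and 6 of them are shown so that the part of each transcript that was read can be seen. The probes of Nefm and Ina, the Gfap probe and the main Nes probe are given by position alone. The sequences are those of the array design, 5′ to 3′, and no letter is set apart by capitals.
Vim, chr17:87851390-87851449, plus strand: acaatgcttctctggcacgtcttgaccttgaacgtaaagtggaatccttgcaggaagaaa
Probe of an Ensembl transcript described as GFAP, chr10:92063092-92063151, minus strand: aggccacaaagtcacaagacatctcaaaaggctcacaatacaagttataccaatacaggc
Nes, second probe, chr2:180060450-180060509, plus strand: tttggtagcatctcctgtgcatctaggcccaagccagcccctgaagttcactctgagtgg
Nefl, chr15:47638898-47638957, plus strand: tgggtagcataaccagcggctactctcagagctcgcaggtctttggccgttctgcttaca
Nefh, chr14:85595648-85595707, minus strand: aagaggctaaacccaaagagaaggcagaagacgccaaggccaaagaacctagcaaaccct
Prph, chr7:137839568-137839627, plus strand: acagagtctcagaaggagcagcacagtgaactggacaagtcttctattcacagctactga
All positions are in build rn4 as the array files give them, and an exon and UTR annotation of that build was not used here. The Vim probe starts at base 711 of its transcript, the Nefl probe at base 1287, the Nefh probe at base 2924 and the Prph probe at base 1389. The remaining member probes lie at chr10:92060835-92060894 on the minus strand for Gfap, chr2:180060869-180060928 on the plus strand for the main Nes probe, chr15:47698645-47698704 on the minus strand for Nefm and chr1:252340311-252340370 on the plus strand for Ina. Nefl and Nefm are thus neighbours on chromosome 15. The GC content of the 6 probes shown lay between 41.7% (the Ensembl GFAP transcript) and 55.0% (Nefl and the second Nes probe).

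Values are scaled signals, in which the 75th percentile of all non-control spots of an array is 1000 units, and a difference is the log2 of a day's signal minus that of the control array. All 9 member probes were well above background and below saturation on all 6 arrays, and no difference of a member is a bound. Each group was 1 array of 1 pool, so the spread between animals is unknown, no p-value is given, and the 5 differences of a gene share the same control array. Technical error was taken from probes printed 10 times: for a probe with 1 spot, the SD of a difference was 0.08 log2 over all such probes, and with genes split into 3 equal groups by signal it was 0.24 in the dim group, 0.10 in the middle group and 0.07 in the bright group. This SD was computed from spots of the same array, so it does not include error from labelling, hybridisation or slide. Gfap, Vim and Nefm were themselves printed 10 times. The arrays of control, day 21 and day 35 were on 1 slide and those of day 45, 55 and 70 on another, so for the last 3 days slide and day cannot be told apart. Between 74.5% and 80.2% of the spots of an array were well above background, and the 75th percentile of intensity lay between 1243 and 1504.

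Among the glial genes, Vim stood apart. Its signal was 362.5 units on the control array and 2033 at day 21, 419.8 at day 35, 452 at day 45, 389 at day 55 and 400.4 at day 70. Day 21 alone was high, and the other 5 arrays lay close together. The 10 spots at day 21 read between 1949 and 2209 units, against 343 to 387 on the control array, and no spot of any other array exceeded 486. The difference at day 21 was 2.49, a 5.61-fold higher signal. At day 35, 45, 55 and 70 the differences were 0.21, 0.32, 0.10 and 0.14, all above the control, with a span of 0.32 over the 5 arrays other than day 21. Against the mean of the other 5 arrays, which holds day 21, those 4 days lay below. On the slide that control, day 21 and day 35 share, Vim at day 35 was lower than at day 21 by a log2 difference of -2.28.

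Gfap, the main filament protein of astrocytes, had the same single high array with a smaller step. Its signal was 894 units on the control array and 1807 at day 21, 813 at day 35, 1001 at day 45, 741 at day 55 and 809.6 at day 70. The 10 spots at day 21 lay between 1709 and 1917 units, against 822 to 971 on the control array, and the highest spot elsewhere was 1059 at day 45. The difference at day 21 was 1.02, or 2.02-fold, just past the 2-fold line. With normexp background correction it was 0.96 and with no scaling between arrays 0.94, both under that line. At day 35, 45, 55 and 70 the differences were -0.14, 0.16, -0.27 and -0.14, on both sides of the control. Between arrays of the second slide the signal at day 55 was lower than at day 45 by a log2 difference of -0.43. At day 21 the difference of Vim exceeded that of Gfap by 1.47 log2, whereas on the 4 later days it did so by 0.16 to 0.37.

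**Figure D1:**
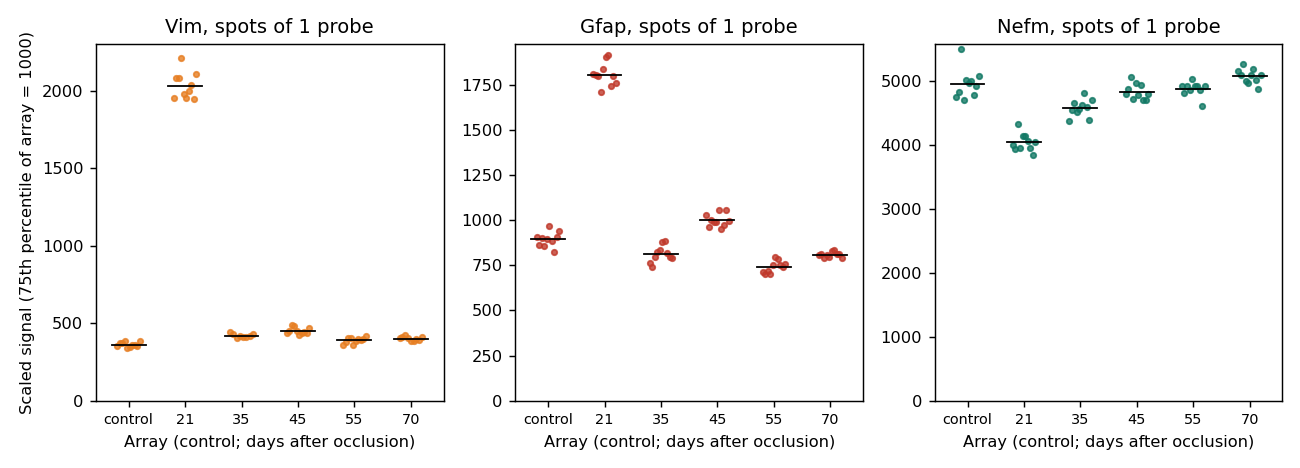
Scaled signal of each spot of the probes for Vim, Gfap and Nefm (y axis, units in which the 75th percentile of an array is 1000) on the control array and at day 21, 35, 45, 55 and 70 (x axis), with a line at the mean of the log2 values. Vim lies at 2033 units at day 21 against 362.5 on the control array, Gfap at 1807 against 894 and Nefm at 4038 against 4946, and the spots of day 21 do not overlap those of the control array.

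A further probe bears on Gfap. It was designed on an Ensembl transcript that the file describes as GFAP, it could not be matched to a gene by accession, and it is not counted among the members. It lies 2197 bases away from the Gfap probe on the same strand, on its higher-coordinate side. Its signal was 115 units on the control array and 309.6 at day 21, 111 at day 35, 116 at day 45, 134 at day 55 and 110.0 at day 70. Day 21 was again the high array, with a difference of 1.43 or 2.69-fold, against 1.02 for the Gfap probe. The 2 probes parted at day 55, where the differences were 0.22 for the Ensembl transcript and -0.27 for Gfap, a gap of 0.49 log2. At day 35, 45 and 70 the gaps were at most 0.15. Gfap gives rise to several splice forms with different ends, and which of them each probe reads was not determined.

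Nes had no step above the control at day 21 like those of Vim and Gfap, and its late arrays were low. The main probe, from base 5867 of the transcript, read 507 units on the control array and 555 at day 21, 422 at day 35, 295 at day 45, 313 at day 55 and 301 at day 70. The 3 arrays of the second slide were the lowest and lay within 0.08 log2 of each other. Their differences were -0.78, -0.70 and -0.75, which is 0.583, 0.617 and 0.594 of the control signal. Set against the mean of the other 5 arrays they were -0.46, -0.36 and -0.43, and day 21, the highest array of this probe, was at 0.63. The second probe, 359 bases upstream at base 5448, read 263.5 units on the control array and 216 at day 21, 166 at day 35, 147 at day 45, 144 at day 55 and 132 at day 70. It was below the control on every later array, with differences of -0.29, -0.67, -0.84 and -0.87 at day 21, 35, 45 and 55 and 0.502 of the control signal at day 70, just inside the 2-fold line. At day 21 the 2 probes disagreed in sign, with 0.13 for the main probe and -0.29 for the second. At day 35 both were below the control and they differed by 0.40. On the first slide both probes were lower at day 35 than at day 21, by log2 differences of -0.40 and -0.38. Nes lies in the middle group of genes by signal, in which 5.5% of genes at day 45, 3.81% at day 55 and 5.5% at day 70 were at least 2-fold lower and the median differences were -0.10, -0.07 and -0.09.

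**Figure D2:**
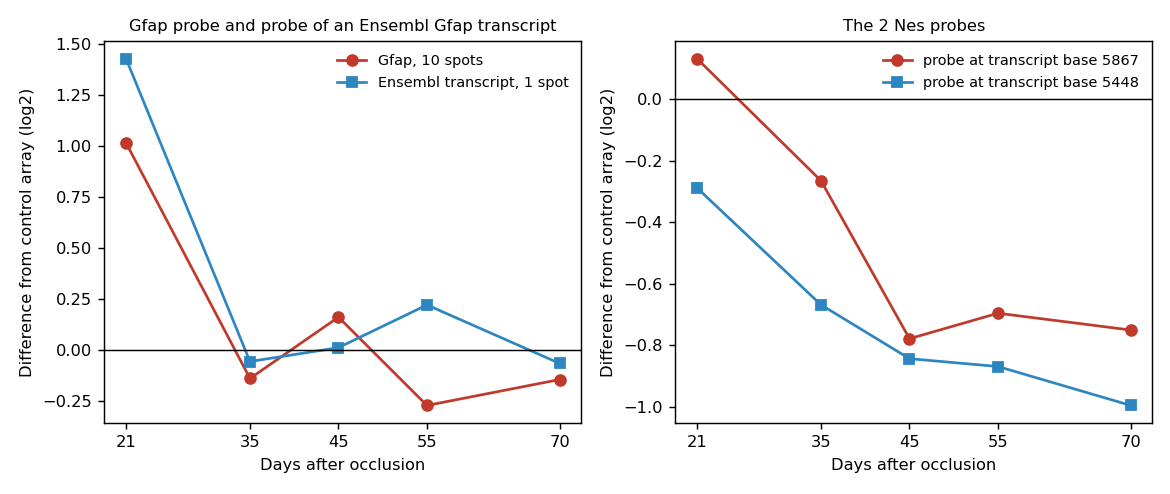
Difference from the control array (y axis, log2) against days after occlusion (x axis) for the Gfap probe and the probe of an Ensembl transcript described as GFAP (left), and for both Nes probes (right). Both Gfap curves stand highest at day 21 (1.02 and 1.43) and part at day 55 (-0.27 and 0.22), while the Nes probes part at day 21 (0.13 and -0.29) and at day 70 lie at 0.594 (main) and 0.502 (second) of the control signal.

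The 3 neurofilament chains spanned 0.32 (Nefl), 0.33 (Nefm) and 0.57 (Nefh) log2 over the 6 arrays. Nefl, the chain on which the others assemble, read 3311 units on the control array and 2908 at day 21, 3507 at day 35, 3439 at day 45, 3224 at day 55 and 3628 at day 70. Day 21 was the lowest of the 6, with a difference of -0.19. That is more than 2 technical SD for a bright probe, an SD that covers only spread between spots of an array. Between neighbours in the order of its levels the largest gap was 0.15, from day 55 down to day 21. Nefm, the medium chain, read 4946 units on the control array and 4038 at day 21, 4571 at day 35, 4830.3 at day 45, 4875 at day 55 and 5069 at day 70. Its 10 spots at day 21 lay between 3847 and 4330.1 units, below the 4694 to 5492 of the control array and the 4377 to 4801 of day 35. The difference at day 21 was -0.29, and those of the later days were -0.11, -0.03, -0.02 and 0.04. Nefh, the heavy chain, read 1332 units on the control array and 1405 at day 21, 1496 at day 35, 1006 at day 45, 1435 at day 55 and 1386 at day 70. Here day 45 alone was low, with a difference of -0.41, and it also lay below day 55 and day 70 of its own slide, which were higher than day 45 by 0.51 and 0.46 log2.

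Ina and Prph were the other neuronal members. Ina read 7391 units on the control array and 6746 at day 21, 6727 at day 35, 6041 at day 45, 6781 at day 55 and 6968 at day 70. All 5 later arrays were below the control, by differences between -0.29 at day 45 and -0.08 at day 70. Prph was the dimmest member, with 89.8 units on the control array and 81.7 at day 21, 74.4 at day 35, 83.9 at day 45, 59.6 at day 55 and 54.0 at day 70. Day 55 and day 70 were its low arrays, with differences of -0.59 and -0.73, and both also lay below day 45 of the same slide, by log2 differences of -0.49 and -0.64. In the deposited normalized values they were -0.40 and -0.41. Prph lies in the middle group of genes by signal, as Nes does. In bulk RNA fewer cells of a type and less RNA per cell cannot be told apart, and this holds for each neuronal gene here.

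**Figure D3:**
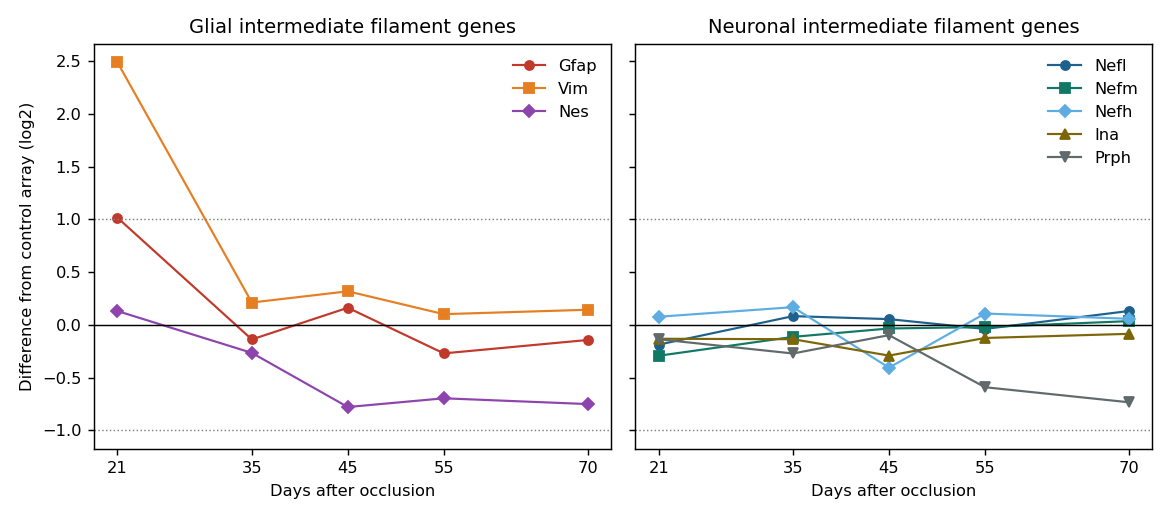
Difference from the control array (y axis, log2) against days after occlusion (x axis) for the glial genes (left) and the neuronal genes (right), 1 array per day, with dotted lines at a 2-fold difference. Vim (2.49) and Gfap (1.02) pass the upper line at day 21, and from day 35 to day 70 each of the 8 genes, by its main probe, stays between the lines.

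Set side by side at day 21, the 3 glial genes by their main probes had a median difference of 1.02 and a range of 0.13 to 2.49. The lowest was Nes, whose second probe was at -0.29 and whose mean over both probes was -0.08. Of the 5 neuronal genes 4 lay below it, with a median of -0.14 and a range of -0.29 to 0.08, next to a median of -0.07 over all genes. The mean difference of the glial genes exceeded that of the neuronal genes by 1.35 log2. Of the 8 members 2 (Vim and Gfap) were at least 2-fold higher and 0 were 2-fold lower, where 5.44% of the 13916 genes measured on day 21 or control were 2-fold away in either direction, 3.59% higher and 1.85% lower. Of all genes 39.3% lay above the control by any size and 60.1% below it. In the bright group of genes, in which both lie, 1.23% were at least 2-fold higher and 0 of 5769 were 2-fold lower. No member was 2-fold away by its main probe at day 35, 45, 55 or 70, where the shares of all genes were 1.55%, 6.25%, 5.52% and 7.22%. Glial and neuronal means then differed by -0.01, 0.06, -0.15 and -0.13. The glial medians on those days were -0.14, 0.16, -0.27 and -0.14 and the neuronal medians -0.11, -0.10, -0.04 and 0.04.

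**Figure D4:**
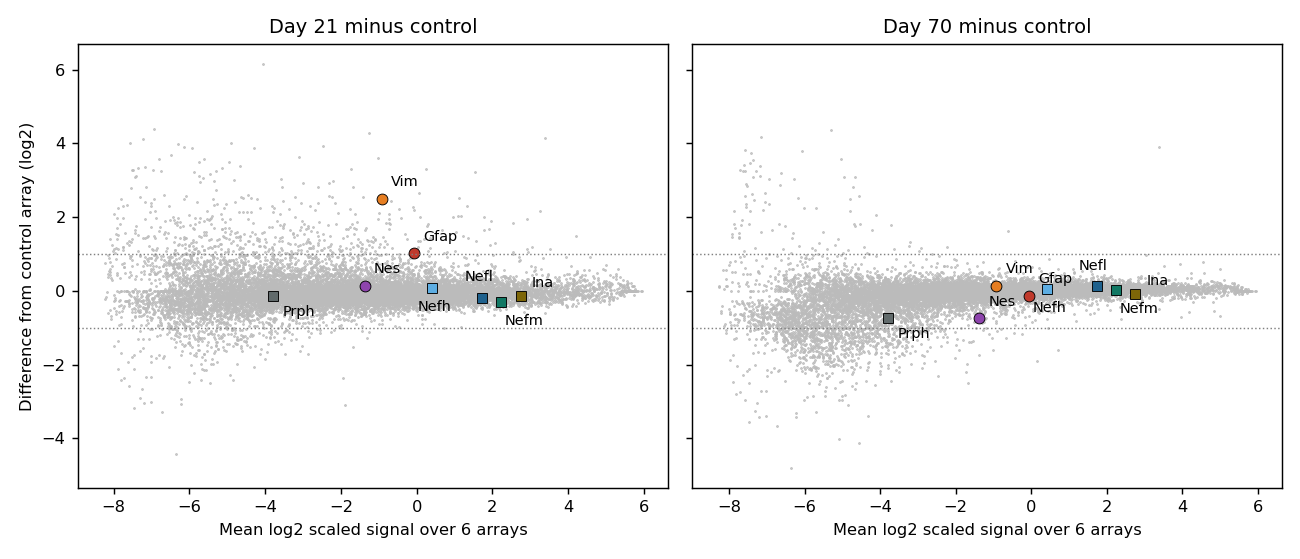
Difference from the control array (y axis, log2) against the mean log2 scaled signal over the 6 arrays (x axis) for all measured genes (grey) and the 8 members (circles for glial, squares for neuronal genes), at day 21 (left) and day 70 (right), with dotted lines at 2-fold. At day 21 Vim (2.49) and Gfap (1.02) lie on or above the upper line among brighter genes, and at day 70 Nes (-0.75) and Prph (-0.73) are the lowest members.

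Markers of other cell types moved with Vim and Gfap at day 21, when 3.59% of all genes were at least 2-fold higher. Of 13 microglia markers, all were above the control and 10 at least 2-fold, with a median of 1.64 and a summed signal of 82430.2 units at day 21 against 28841 on the control array. Cd68, a lysosomal protein of phagocytes, was 15.2-fold higher and Trem2, a microglial receptor, 5.75-fold. Of 10 markers of meninges and fibroblasts 6 were at least 2-fold higher, with a sum of 9970.2 units against 4266. Collagen genes led this list, Col3a1 at 2.31 and Col1a2 at 1.97 log2. Sums here and below leave out genes saturated on any array. Of 9 measured choroid plexus markers 6 were at least 2-fold higher, and 8 of them, without Ttr, summed to 1036 units against 306. Ttr, the transthyretin of choroid plexus epithelium, was at least 17.6-fold higher, saturated at day 21, and Kcnj13 at least 11.3-fold. Prlr was not well above background on any array. The part of these cell types in the Vim and Gfap signals was not tested. At day 35 the choroid plexus sum without Ttr was 574 units against 306. The differences of Ttr, Vim and Gfap were then 3.17, 0.21 and -0.14. At day 45 and 55 that sum was 206 and 333 units. At day 70 it was 723 units against 306, and the differences of Ttr, Vim and Gfap were 3.91, 0.14 and -0.14. Microglia and meningeal markers had 0 members 2-fold higher at each of days 35, 45, 55 and 70, and their medians then lay between -0.15 and 0.15.

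Of 14 general astrocyte markers 11 had a measured difference, since Aldoc, Ndrg2 and Apoe were saturated on every array. At day 21 0 of the 11 were 2-fold away and 9 lay above the control. Their median was 0.19 and their sum 106290 units against 87594 on the control array. The shares of all genes 2-fold away that day were 3.59% higher and 1.85% lower. Aqp4, the water channel of astrocyte endfeet, stood at 0.67 and Aldh1l1, a folate enzyme, at 0.44. Genes known to be switched on in reactive astrocytes were mostly higher: of 13 measured, without Gfap and Vim, 10 were at least 2-fold higher. Below the control were S1pr3, a sphingosine phosphate receptor, at -1.26 and Osmr, at most 0.61 of the control. The median was 1.84 and the sum 13718 units against 2628. Serping1, an inhibitor of complement, was 9.80-fold higher and Cxcl10, a chemokine, 9.44-fold, and microglia and fibroblasts also express several of these genes. Hspb1, described below with the chaperones, is on this list as well. Ggta1 was not well above background on any array. On the 4 later days the median of the list was between -0.28 and -0.04. At day 45 and 55, 1 gene of the list was at least 2-fold higher, as 0.589% and 0.644% of all genes were. At day 45, 55 and 70, 1, 2 and 3 were at least 2-fold lower, as 5.67%, 4.88% and 6.57% of all genes were.

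Beside the late Nes values, radial glia and neuroblast markers had medians of -0.10, -0.07 and -0.09 at day 45, 55 and 70. Of the 9 measured, 1 was at least 2-fold lower at day 45 and at day 70, namely Sox11, a neuroblast transcription factor, at -1.15 and -1.33. On those 2 days 5.67% and 6.57% of all genes were at least 2-fold lower. Fabp7, a fatty acid binding protein of radial glia and astrocytes, was 2.07-fold higher at day 21 and within 0.06 of the control afterwards. Endothelium and pericyte markers, which bear on Nes as well, had medians of -0.19, -0.13 and -0.17 on those 3 days. At day 21 their sum was 8795 units against 8608, with Abcb1a, a drug efflux pump, at -1.26 and Rgs5, a pericyte gene, at -0.62. The part of these cell types in the Nes signal was not tested.

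Beside the neuronal filaments, 11 of 12 general neuron markers lay below the control at day 21, with a median of -0.11 and, over 11 of them, a sum of 106869 units against 119065. Of all genes 60.1% lay below the control on that day, with a median of -0.07. Thy1, a neuronal surface protein, stood at -0.45 and Syp, the synaptic vesicle protein synaptophysin, at -0.35. Markers of hippocampal principal neurons had a median of -0.34, with 7 of 10 below, and a sum of 21268 units against 25233. Wfs1, which marks CA1 pyramidal cells, was at -0.59, and Spink8, another such gene, was at most 0.63 of the control. All 10 were well above background on the control array, so the markers of the labelled tissue were present, and 8 or 9 were so at each later day. Of 9 oligodendrocyte markers with a measured difference 0 were past 2-fold at day 21, where 5.44% of all genes were. Their median was 0.35, with Mal (a myelin protein) at 0.74 and Mobp at 0.42. From day 35 to day 70 the medians of the general neuron markers were between -0.05 and -0.04.

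**Figure D5:**
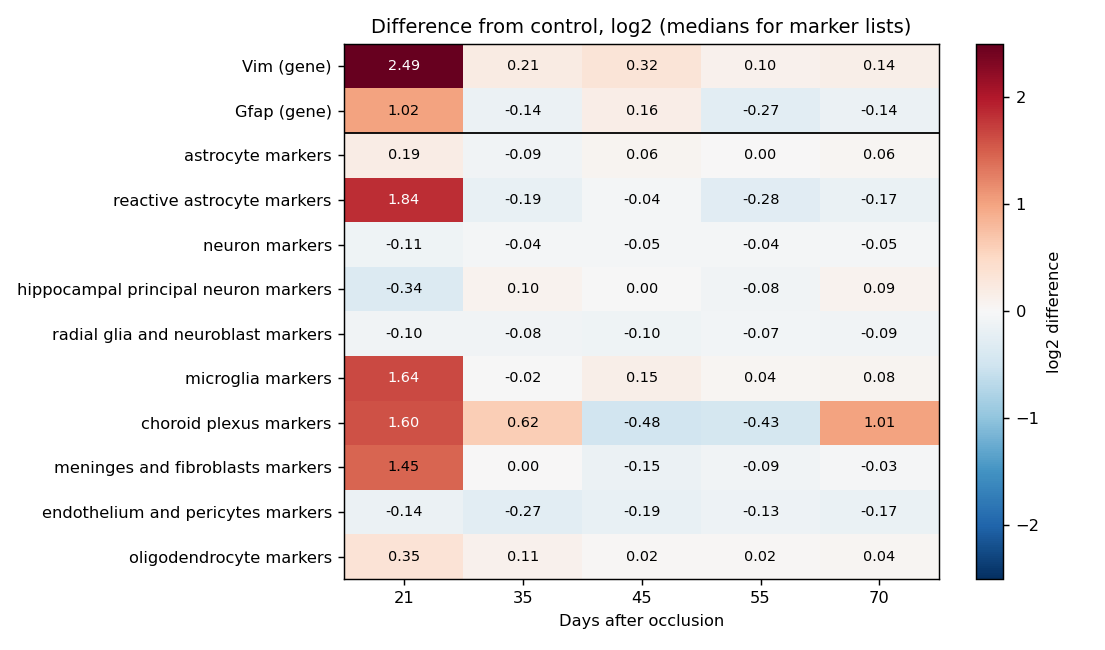
Difference from the control array (log2, colour and printed value) for Vim, Gfap and the median of each list of cell type markers (rows) by days after occlusion (columns). At day 21 reactive astrocyte (1.84), microglia (1.64), choroid plexus (1.60) and meningeal (1.45) markers stand high with Vim and Gfap, and at day 70 only the choroid plexus median (1.01) does so, with Vim at 0.14.

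Other genes of the filament system were read from 4 lists. Of 15 other intermediate filament genes that could be compared (lamins, keratins, desmin, synemin and others), 0 were 2-fold away at day 21, with a median of -0.05. The share of all genes 2-fold away that day was 5.44%. Krt18, a keratin of simple epithelia, stood at 0.64, and Krt7 was at most 0.75 of the control. Krt8, Krt10, Krt17, Krt19 and Krt20 were not well above background on any array. On the second slide 2 of the 15 were at least 2-fold lower at day 45 and at day 55, and 1 at day 70, where 5.67%, 4.88% and 6.57% of all genes were. The first was Krt5, at most 0.25 of the control at day 45, where it was not well above background, and at -1.37 and -1.89 at day 55 and 70. The second was Krt14, at -1.69 and -1.32 at day 45 and 55 and just inside the threshold at day 70. They are the keratin pair of basal epithelial cells, and both were chosen for naming after their values were seen.

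Among 14 linkers, chaperones and turnover factors 2 were at least 2-fold higher at day 21 and 0 lower, with a median of 0.00. The shares of all genes that day were 3.59% higher and 1.85% lower. Hspb1, the small heat shock protein that binds filaments, read 393 units on the control array and 1405 at day 21, 539 at day 35, 579 at day 45, 531 at day 55 and 367 at day 70. It was high at day 21, by 1.84 log2 or 3.57-fold, and near the control at day 70. Cryab, the alpha-B crystallin that chaperones GFAP, read 6843 units on the control array and 14921 at day 21, 12478 at day 35, 13443 at day 45, 12578 at day 55 and 11004 at day 70. Unlike Gfap it stayed above the control on all 5 days, with differences of 1.12, 0.87, 0.97, 0.88 and 0.69. Evpl, the linker envoplakin, was at least 2-fold lower at day 35 (-1.02), as 1.11% of all genes were, and at day 70 (-1.26), as 6.57% were. It was chosen for naming after its values were seen.

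Of 18 genes for the transport and phosphorylation of filaments 0 were 2-fold away on any day, with 14 below the control at day 21 and a median of -0.17. Over all genes 60.1% were below the control at day 21, with a median of -0.07. The shares of all genes 2-fold away were 5.44%, 1.55%, 6.25%, 5.52% and 7.22% at day 21, 35, 45, 55 and 70. The kinesin motors Kif5c and Kif5a, which carry neurofilaments along axons, were the furthest from the control at day 21, at -0.55 and -0.50. There were 21 comparable genes for factors that act on Gfap, Vim and Nes transcription. At day 21, 1 was at least 2-fold higher and 0 lower, with a median of -0.02. The shares of all genes that day were 3.59% higher and 1.85% lower. The 1 higher gene was Tgfb1, the cytokine TGF-beta 1, at 2.56-fold. It had 80.0 units at day 21 against 31.2 on the control array. Its receptor Tgfbr1 stood at 0.90. On the later days the differences of Tgfb1 were between -0.17 and -0.03. Osm, the cytokine oncostatin M, was the 1 gene of the list at least 2-fold lower at day 45, 55 and 70 (-1.50, -1.17 and -1.24). Of all genes 5.67%, 4.88% and 6.57% were at least 2-fold lower on those days, and Osm was also chosen for naming after its values were seen. Il6st was not well above background on any array.

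Profiles were compared over the 5 differences from control, among 12258 genes well above background on all 6 arrays. Among the genes near Vim were Cxcl16 and Mefv, at root mean square distances of 0.11 and 0.14 log2 and with differences at day 21 of 2.39 and 2.43. The nearest to Gfap were Arhgap45, Sh3tc1 and Clic1, at distances of 0.08, 0.09 and 0.10 and with differences at day 21 of 1.09, 0.98 and 0.88. Within 0.1 of the member lay 3 genes for Gfap, 7 for Nes, 1 for Prph, 27 for Nefh, 420 for Ina, 1038 for Nefm and 1334 for Nefl. The profiles of Nefl and Nefm, close to 0 throughout, were thus shared by far more genes than those of Gfap and Nes.

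Promoters were read from RefSeq (assembly GRCr8) as the 250 bases before the gene start, and 5 of the 8 members were matched, namely Gfap, Vim, Nes, Ina and Prph. The letters TTCNNNGAA, of the kind STAT factors bind, and TGANTCA, of the kind AP-1 binds, were searched on both strands. Neither occurs in any of these 5 windows, while they occur in 7.67% and 6.34% of the 33469 promoters of the same length. This says only that the letters are absent from these windows.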

How the data were processed

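The authors deposited 1 scanner file per array, which per the file headers comes from Agilent Feature Extraction 10.7.3.1 on design 028282 and holds for each spot a processed intensity of 1 green channel, already background-subtracted (the labels name Cy5). A deposited table of normalized intensity for 41507 spots, made in a way that no source used here states, served as an alternative.

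From 42877 non-control spots, those marked as outliers (346 to 470 per array) were left out. Log2 processed signals were centred on each array's 75th percentile, spots of a probe were averaged, and a gene's value is that of its brightest probe on average. Probes were named through RefSeq tables by accession (17328), symbol (2632) or synonym (717), and 9690 stayed without a name. A difference is a bound if its dimmer side is not well above background or its brighter side saturated. A difference counted from 2-fold upward. With 1 array per group no test was run. Neighbouring arrays were called apart beyond 2 technical SD. The calculation was tested on simulated data. Array number limits the precision.

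The members and the gene lists were chosen with earlier results of these data known. Further genes were named by rule: from each list the 2 furthest from control at day 21 and, in the lists of related genes, any at least 2-fold away that day, and the 3 nearest profiles of members spanning at least 1 log2, of which 1 is not reported here. Alternatives were normexp (limma 3.58.1, R 4.3.3, offset 50), other scalings, the deposited table, other probe and spot rules, the other 5 arrays as the baseline and a 1.5-fold threshold. Python 3.11.15 with numpy 2.4.6 and pandas 2.3.3 was used.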

Additional observations from a re-analysis of the deposited data

How the results depend on the processing

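Each member difference was recomputed under 10 alternatives, and 372 of the 400 values kept the direction reported. Of the 90 values of differences of at least 0.3 log2, 89 did so. The rule of only probes well above background on all 6 arrays could change no member value, since every member probe met it. Averaging all probes could alter only Nes, and keeping outlier spots only Vim. Part of the 400 values thus agreed by construction. The difference of Vim at day 21 lay between 2.33 and 2.56, that of Gfap between 0.94 and 1.09, and those of Nes at day 45, 55 and 70 between -0.87 and -0.36. Prph at day 70 lay between -0.76 and -0.41, with -0.48 under normexp. Nes at day 21 was -0.08 as the mean of both probes and 0.63 against the other 5 arrays. With the other 5 arrays as the baseline, 12 of 40 values changed direction. The count of members at least 2-fold away at day 21, which was 2, was 1 under normexp and 1 with no scaling, since Gfap lies at the threshold. With a 1.5-fold threshold 1 member at day 45, 2 at day 55 and 2 at day 70 counted, against 0 at 2-fold. At that threshold 13.72%, 12.54% and 14.53% of all genes counted on those days. The count over all genes depended more on the processing. It was 757, 216, 860, 771 and 1002 at day 21, 35, 45, 55 and 70. Under normexp it was 267, 49, 119, 102 and 161, and from the deposited values it was 481, 104, 209, 241 and 259. With only probes well above background on all 6 arrays it was 429, 70, 457, 312 and 468, where fewer genes are counted, and at 1.5-fold 1813, 787, 1887, 1752 and 2015. Quantile normalization gave 496 at day 45 and 626 at day 70. The other 5 arrays as the baseline gave 456 at day 35, 322 at day 55 and 624 at day 70. Of the called genes 66.1%, 28.2%, 9.42%, 11.7% and 8.98% were higher at day 21, 35, 45, 55 and 70. Under quantile normalization 46.1%, 39.9%, 31.1% and 35.9% were higher from day 35 on, and with no scaling 48.6% at day 35, where the median of all genes was 0.16 instead of -0.04. Normexp gave 89.5% at day 21, 28.4% at day 55 and 23.6% at day 70. The deposited table gave 76.5% at day 21 and 32.1%, 30.3% and 27.8% from day 45 on. The other 5 arrays as the baseline gave 92.5%, 85.3%, 45.7% and 23.9% at day 21, 35, 55 and 70. The cause of these shifts was not tested. No paired analysis was possible because each group is 1 array, and leaving out a replicate was not possible for the same reason. Dim probes limit the precision, with a technical SD of 0.24 log2 among the dim group of genes.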
